A study of Homo sapiens with 4 samples.

Results

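Genes that cells induce when oxygen is short, other than the genes of glycolysis, were examined in ovarian cancer cells treated with EC359, a small-molecule inhibitor of the leukemia inhibitory factor receptor (LIFR). The set held 45 of the 23228 gene symbols in the count files and was listed by symbol, with earlier results of these data known, as hypoxia-induced genes for mitophagy, glycogen, collagen modification, histone demethylation, angiogenesis and related functions. All 45 were found in the files, and 43 of them were among the 12706 genes with enough counts to be tested. ES2 is an established human ovarian cancer line, and all libraries came from this 1 line. Cells received EC359 at 10 nM or vehicle (0.1% DMSO, the solvent) for 12 h, and poly(A) RNA was sequenced in 2 libraries per treatment. No oxygen level other than that of the culture was compared, so the set was followed under EC359 and not under hypoxia.

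Hypoxia-inducible factor (HIF) is a transcription factor made of an oxygen-regulated alpha subunit, such as HIF1A or EPAS1, and a partner, ARNT. With oxygen present, prolyl hydroxylases of the EGLN family mark the alpha subunit for destruction through VHL, and without it the alpha subunit accumulates and binds short response elements near its target genes. Beyond glycolysis, those targets restrain mitochondria, store glycogen, stiffen collagen, demethylate histones and signal to blood vessels, and many are known to be raised in tumors. The alpha subunit is regulated mainly as a protein, so RNA counts of the targets do not measure it.

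The response element core was searched as ACGTG or GCGTG, on either strand and with overlapping matches counted, in RefSeq promoter windows of 300 bases (250 before the annotated start and 50 after it, assembly GRCh38.p14). The 250 bases before the start are shown for BNIP3 and PPFIA4, which had the lowest adjusted p and the largest decrease of the set, for P4HA1, whose window holds a single match, and for DDIT4, a hypoxia-induced gene with nearly equal counts under both treatments. BNIP3 is read from the minus strand of chr10:131981924-131982173, P4HA1 from the minus strand of chr10:73096867-73097116, PPFIA4 from the plus strand of chr1:203026241-203026490 and DDIT4 from the plus strand of chr10:72273674-72273923. Capitals mark the core or its reverse complement.
BNIP3: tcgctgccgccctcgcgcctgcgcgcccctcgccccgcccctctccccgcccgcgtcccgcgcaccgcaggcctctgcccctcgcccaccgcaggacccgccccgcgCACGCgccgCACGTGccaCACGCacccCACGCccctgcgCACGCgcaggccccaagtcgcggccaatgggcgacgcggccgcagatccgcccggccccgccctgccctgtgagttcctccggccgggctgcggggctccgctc
P4HA1: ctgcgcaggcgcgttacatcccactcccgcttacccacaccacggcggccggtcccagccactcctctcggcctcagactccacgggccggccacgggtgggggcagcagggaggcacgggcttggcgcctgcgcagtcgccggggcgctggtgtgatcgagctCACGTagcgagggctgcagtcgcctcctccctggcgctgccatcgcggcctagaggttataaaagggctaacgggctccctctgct
PPFIA4: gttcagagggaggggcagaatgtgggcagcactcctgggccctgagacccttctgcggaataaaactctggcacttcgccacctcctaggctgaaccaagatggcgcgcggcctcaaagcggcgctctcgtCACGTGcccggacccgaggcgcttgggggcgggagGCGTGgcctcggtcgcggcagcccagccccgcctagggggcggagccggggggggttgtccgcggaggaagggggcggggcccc
DDIT4: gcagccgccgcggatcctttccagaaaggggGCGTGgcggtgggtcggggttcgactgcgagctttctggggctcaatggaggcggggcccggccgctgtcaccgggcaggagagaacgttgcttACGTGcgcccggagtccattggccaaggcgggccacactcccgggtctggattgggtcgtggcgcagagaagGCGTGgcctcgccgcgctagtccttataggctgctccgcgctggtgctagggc
The BNIP3 stretch holds 6 matches, all between 143 and 104 bases before the start, that of PPFIA4 holds 3 and that of P4HA1 holds 1. The DDIT4 stretch also holds 3 matches, with 1 more after the start. So a match stood before the start of genes that fell and of a gene with nearly equal counts alike.

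A promoter window was found for 36 of the 45 genes, and the 9 without an entry were ANKZF1, BNIP3L, JMJD6, LOXL2, NDRG1, PPP1R3B, SPAG4, VEGFA and ZNF395. Of the 36, 31 had a match in at least 1 window. Counted by window, since a gene can have several starts, 84.6% of the 52 windows of the set held a match, against 60.9% of the 13030 windows of all tested genes and 48.4% of all 35116 windows. For ACGTG alone the shares were 63.5%, 25.6% and 21.4%. A match was present in all 7 genes with a window that were called lower after EC359 (adjusted p under 0.01) and in 22 of the 27 tested genes that were not called. By window there were 8 of 10 with a match in the first group and 34 of 40 in the second. A match was thus common in the set, whose genes were listed as hypoxia-induced. It was about as frequent in genes that were called as in genes that were not, which was counted and not tested. Median GC content was 66.7% in the windows of the set, 64.7% in those of all tested genes and 58.7% in all windows. Windows of a gene can overlap, so a match can be counted more than once. A match is not a measured binding site.

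**Figure D1:**
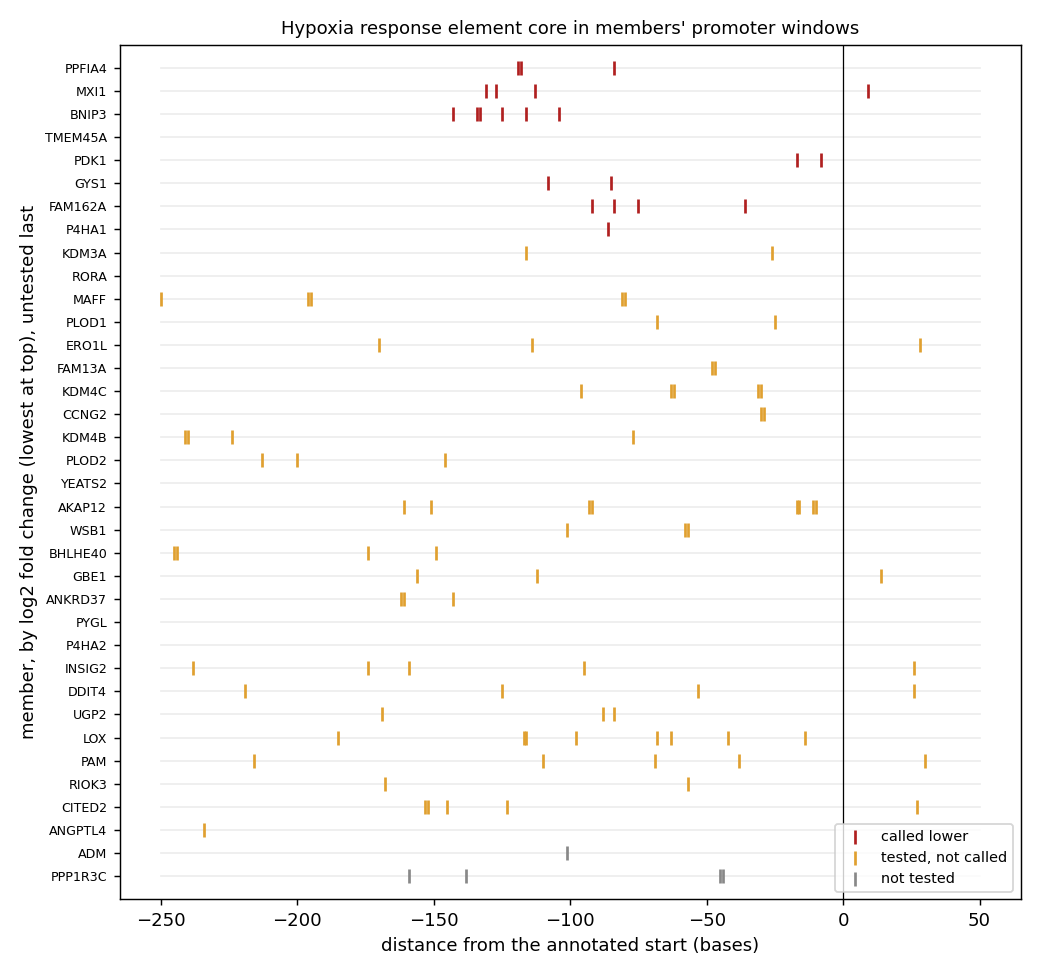
Positions of the response element core in the promoter windows of the 36 genes that had one, as the distance in bases from the annotated start, with genes ordered by log2 fold change and the untested ADM and PPP1R3C last. Each tick is 1 match, and windows of a gene with several starts are drawn on 1 line. Ticks appear in the genes called lower (dark red) as well as in tested genes that were not called (orange).

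Reads counted on genes numbered from 25572494 to 31707553 per library, and the EC359 libraries were the deeper ones. Values are given as normalized counts, which are counts scaled to a common library size of 28221400 with trimmed mean of M-values (TMM) factors between 0.992 and 1.01. EC359 was set against vehicle in edgeR's quasi-likelihood test, with p adjusted over all tested genes by the Benjamini-Hochberg method. A gene counts as called where this adjusted p is under 0.01, whatever the size of its fold change. Every adjusted p in the text comes from this test unless another is named. The labels do not state that libraries came from separate cultures, while the paper names 2 biologically independent samples for its heatmap of these data. The p-values set the treatments against the spread between these libraries, with each gene's spread drawn toward that of other genes. Of the carcinoma and mesenchymal markers, KRT7, KRT8, KRT18, VIM, FN1, CDH2 and ZEB1 had at least 556 raw counts in every library, PAX8 and WT1 had from 24 to 119, and EPCAM, CDH1 and MUC16 had at most 2. Among leukocyte and endothelial markers, PTPRC, CD3E and PECAM1 had at most 2, and CD68 and CDH5 had at least 2296. Of the mesenchymal markers, VIM had a log2 fold change of -0.17 (adjusted p = 0.0135) and ZEB1 of -0.13 (adjusted p = 0.0817), both without overlap of the treatments, while FN1 and CDH2 were at -0.0065 and 0.035. VIM was called lower by DESeq2, limma voom and edgeR's exact test. VIM and ZEB1 were called lower with GC and length trends removed and with a replicate block (a model term for the replicate number). Of the carcinoma markers, KRT18 was called higher with the trends removed, and none was called in the other fits of all 4 libraries. The part of these differences in the values of the set was not tested. In bulk RNA, fewer cells that express a gene and less of its RNA per cell cannot be told apart.

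After EC359, 8 of the 43 tested genes fell and none rose at this threshold. The 8 were BNIP3, PDK1 and FAM162A of the mitochondrial group, P4HA1, GYS1, MXI1, NDRG1 and PPFIA4. They made up 18.6% of the set, against 0.795% of all tested genes called lower. The count of 0 higher stands against 0.299% of all tested genes called higher. Over all tested genes 38 were called higher and 101 lower, or 52 and 69 when libraries were scaled by total counts only, a scaling that left 5 of the 8 (without FAM162A, MXI1 and NDRG1). At an unadjusted p under 0.05, edgeR's test gave 23 lower genes of the set (11.0% of all tested genes) and 0 higher ones (10.7%). At an adjusted p under 0.01, DESeq2, limma voom and edgeR's exact test also called 0 higher, against 60, 37 and 235 of all genes tested. With the adjusted p threshold at 0.05 in the same test the set had 12 lower, against 2.64% of all tested genes, and 0 higher, against 1.68%. Without EC359 replicate 1, and likewise without EC359 replicate 2, none of the 8 passed, and the whole test then called 0 and 2 genes in all. Without vehicle replicate 1 the set had 10 lower genes and 1.96% of all tested genes were called lower, and without vehicle replicate 2 it had 13, with 2.17% of all.

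The decrease was small and spread over much of the set. The median log2 fold change of the 43 genes was -0.13, against 0.0029 for all tested genes, and values ran from -1.09 (PPFIA4) to 0.25 (ANGPTL4), with 36 below 0 and 7 above. In 27 genes both EC359 libraries lay below both vehicle libraries, which holds for 25.4% of all tested genes, and in 4 both lay above, which holds for 26.1%. The remaining 12 overlapped. Summed over the 43 tested genes, normalized counts were 140856 and 138205 in the vehicle libraries and 128600 and 127119 in the EC359 libraries. The difference was -8.37%, with no overlap of the treatments. As a share of all gene counts, all 45 genes took 0.495% and 0.486% with vehicle and 0.459% and 0.455% with EC359. Across the 43 genes, the log2 fold change was nearly unrelated to the level with vehicle (Pearson's r = 0.091, Spearman's rank coefficient 0.053), to transcript GC content (-0.092 and -0.017) and to transcript length (-0.12 and -0.038). These are descriptions over genes that share the same 4 libraries.

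**Figure D2:**
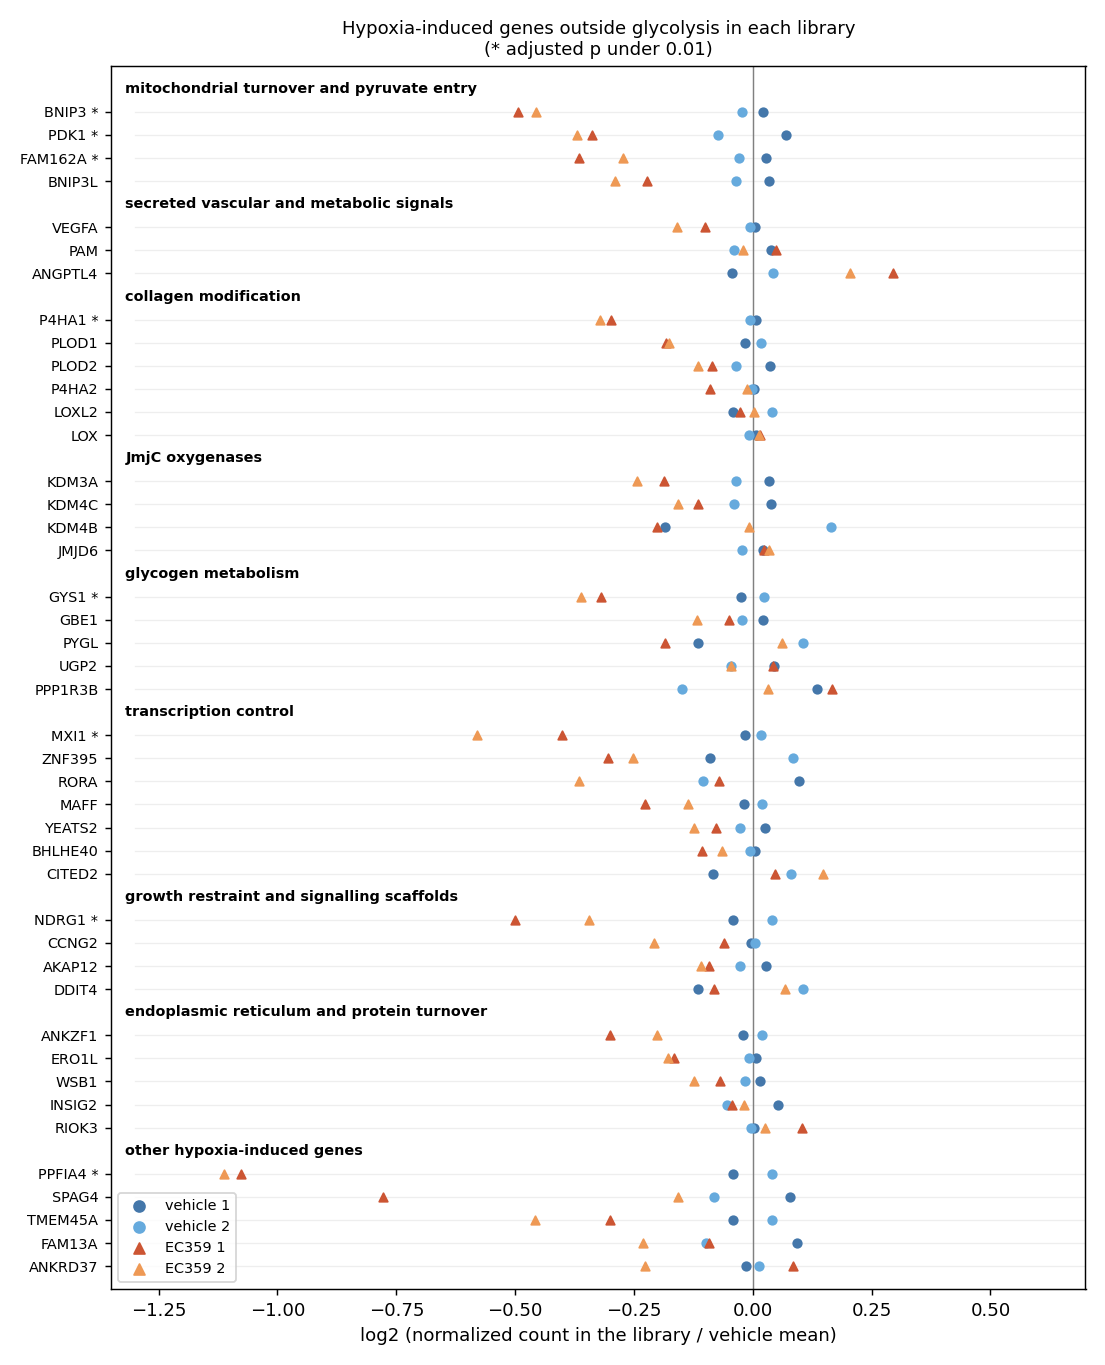
Log2 ratio of the normalized count in each library to the mean of the vehicle libraries for the 43 tested genes, by function group. Circles are the 2 vehicle libraries, triangles the 2 EC359 libraries and asterisks mark an adjusted p under 0.01. Both triangles lie to the left of both circles in 27 genes.

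**Figure D3:**
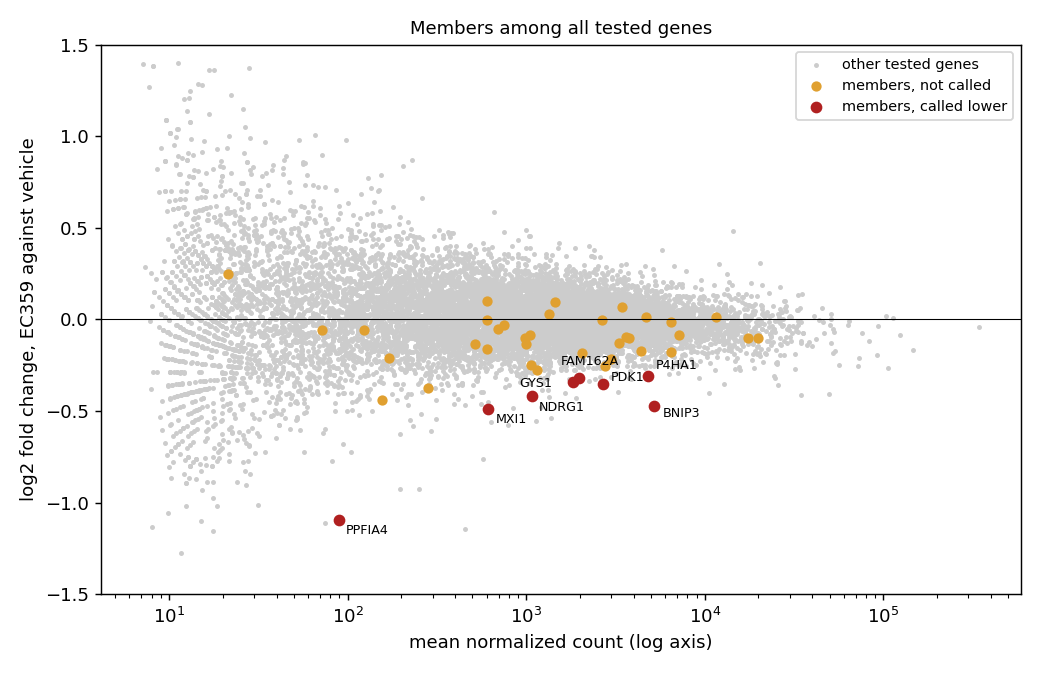
Log2 fold change of EC359 against vehicle and mean normalized count (log axis) of the 12706 tested genes, with the genes of the set in orange and those called lower in dark red. Vertical values run from -1.5 to 1.5, which leaves out 11 genes, and the called genes lie at the lower edge of the grey cloud at their level.

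Genes that turn mitochondria over or keep pyruvate out of them showed the most complete decrease, with 3 of 4 called and both EC359 libraries below both vehicle libraries in each. Summed normalized counts of the 4 genes were 14628 and 13912 with vehicle and 10962 and 11022 with EC359, a difference of -23.0%. BNIP3, a mitophagy receptor of the outer mitochondrial membrane, had 6130 and 5949 normalized counts in the vehicle libraries and 4287 and 4403 in the EC359 libraries. Its counts with EC359 were 71.9% of those with vehicle, and the lowest vehicle library stood far above the highest EC359 library. The log2 fold change was -0.48 (standard error, SE, 0.036; adjusted p = 0.000418), and it stayed between -0.50 and -0.45 when any library was left out. The processed pseudogene BNIP3P1 shares 35.3% of the 50-base windows of the BNIP3 transcript, and reads with several alignments were not counted.

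BNIP3L, the paralog of BNIP3 with the same role, had a log2 fold change of -0.26 (adjusted p = 0.0139), which missed the threshold with edgeR's quasi-likelihood test and passed it with DESeq2. None of the 50-base windows of its canonical transcript occurs in another gene's annotated transcripts. Over the exons of all its annotated transcripts, 7.95% of the bases overlap an exon of PNMA2 on the opposite strand. BNIP3L counts were 3068 and 2924 with vehicle and 2566 and 2451 with EC359, again without overlap of the treatments.

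PDK1, the kinase that inactivates pyruvate dehydrogenase, had 3192 and 2890 normalized counts with vehicle and 2407 and 2352 with EC359. The vehicle libraries differed more from each other than the EC359 libraries, yet the groups did not overlap. PDK1 fell by 21.8% (log2 fold change -0.35, SE 0.052, adjusted p = 0.00634). Its paralogs, which phosphorylate the same enzyme, were not called: PDK2 had a log2 fold change of -0.15 (adjusted p = 0.34), PDK3 of -0.057 (adjusted p = 0.717) and the scarcely counted PDK4 of -0.22 (adjusted p = 0.838). FAM162A, a mitochondrial protein linked to hypoxia-induced cell death, had 2238 and 2150 counts with vehicle and 1703 and 1816 with EC359. Both EC359 libraries were lower (log2 fold change -0.32, SE 0.052, adjusted p = 0.00916). The FAM162A transcript shares 15.2% of its 50-base windows, mostly with WDR5B on the opposite strand, and the strand setting of the counting was not stated.

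Among the secreted vascular and metabolic signals, edgeR's quasi-likelihood test called none of the 3 tested genes, and their median log2 fold change was 0.014. VEGFA, the main angiogenic growth factor, had 3453 and 3427 normalized counts with vehicle and 3208 and 3080 with EC359. The EC359 libraries were lower by 8.61% on average, with closely matched vehicle libraries (log2 fold change -0.13, SE 0.041, adjusted p = 0.0973). VEGFA was called lower only with a replicate block. VEGFB and VEGFC had log2 fold changes of 0.083 and 0.034 (adjusted p = 0.513 and 0.765). ANGPTL4, a lipoprotein lipase inhibitor, had only 18.9 and 20.03 normalized counts with vehicle and 23.9 and 22.4 with EC359 (log2 fold change 0.25, SE 0.30, adjusted p = 0.683), so at this depth a change was not detectable. PAM, which amidates peptide hormones, overlapped between treatments (log2 fold change 0.014). Adrenomedullin (ADM), a vasodilator peptide, had 7 and 7 raw counts with vehicle and 4 and 11 with EC359 and was not tested.

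Within collagen modification, P4HA1 fell while the lysyl oxidases had nearly equal counts. P4HA1, the catalytic subunit of collagen prolyl 4-hydroxylase, had 5360 and 5312 normalized counts with vehicle and 4338 and 4272 with EC359. Replicates differed by far less than the treatments (log2 fold change -0.31, SE 0.035, adjusted p = 0.00229). No 50-base window of the P4HA1 transcript occurs in another gene's transcripts. The alternative catalytic subunits had log2 fold changes of -0.051 for P4HA2 (adjusted p = 0.715) and 0.0091 for the rare P4HA3 (adjusted p = 0.992).

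PLOD1, a collagen lysyl hydroxylase, had 6799 and 6955 normalized counts with vehicle and 6059 and 6090 with EC359 (log2 fold change -0.18, adjusted p = 0.0172), without overlap. PLOD2, which hydroxylates the lysines used for stable cross-links, had a log2 fold change of -0.10 (adjusted p = 0.114). PLOD3, outside the set, was at -0.15 (adjusted p = 0.127). PLOD1 was called lower by DESeq2 and by edgeR's exact test. Both PLOD1 and PLOD2 were called lower with GC and length trends removed and with a replicate block. PLOD2 had the highest level of the set for its transcript length, 5501 normalized counts per kilobase with vehicle, and BNIP3 followed with 3916. LOX, the lysyl oxidase that cross-links collagen and elastin, had 11542 and 11419 counts with vehicle and 11594 and 11578 with EC359. Its EC359 libraries lay above its vehicle libraries by less than 1% on average (log2 fold change 0.013, adjusted p = 0.848). LOXL2 overlapped between the treatments (log2 fold change -0.012), and LOXL1 had a log2 fold change of 0.053 (adjusted p = 0.708).

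Of the 4 oxygenases with a JmjC domain, edgeR's quasi-likelihood test called none. KDM3A, which removes methyl groups from lysine 9 of histone H3 (H3K9), had 3282 and 3129 normalized counts with vehicle and 2816 and 2706 with EC359. The groups did not overlap (log2 fold change -0.22, SE 0.044, adjusted p = 0.0246). It was called lower by edgeR's exact test, with GC and length trends removed, with a replicate block (a model term for the replicate number) and without vehicle replicate 2. KDM3B, its paralog, had a log2 fold change of -0.097 (adjusted p = 0.204). KDM4C, also a histone lysine demethylase, had a log2 fold change of -0.14 (adjusted p = 0.233), and KDM4B of -0.10 with overlapping libraries (adjusted p = 0.623). JMJD6, which hydroxylates lysines of splicing factors, was at 0.029 (adjusted p = 0.808).

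Among the genes of glycogen metabolism, GYS1 alone was called by edgeR's quasi-likelihood test. GYS1, the muscle-type glycogen synthase that is also the common form outside liver, had 2014 and 2082 normalized counts with vehicle and 1642 and 1593 with EC359. Both EC359 libraries were lower (log2 fold change -0.34, SE 0.049, adjusted p = 0.0055), and no 50-base window of its transcript is shared. GBE1, the branching enzyme, had 7547 and 7316 counts with vehicle and 7174 and 6848 with EC359 (log2 fold change -0.084, adjusted p = 0.22). It was called lower only with GC and length trends removed. UGP2, which makes the UDP-glucose substrate, had 2748 and 2577 counts with vehicle and 2743 and 2577 with EC359, nearly the same pair of values in each treatment. PPP1R3B, a glycogen-targeting phosphatase subunit, and PYGL, the liver phosphorylase, overlapped between treatments (log2 fold changes 0.10 and -0.059). PPP1R3C, another targeting subunit, had at most 2 raw counts in a library and was not tested.

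Of the 7 transcription regulators, MXI1 was called by edgeR's quasi-likelihood test. ZNF395 was also called lower by edgeR's exact test. Both MAFF and ZNF395 were called lower with GC and length trends removed and with a replicate block. MXI1, a partner of MAX that opposes MYC, had 707 and 723 normalized counts with vehicle and 541 and 478 with EC359. The EC359 libraries differed from each other more than the vehicle libraries did, and both were lower (log2 fold change -0.49, SE 0.080, adjusted p = 0.00938). The related MXD1, MXD3 and MXD4 had log2 fold changes of 0.14, 0.13 and -0.14 (adjusted p = 0.4, 0.622 and 0.596). ZNF395, a zinc finger protein, had a log2 fold change of -0.28 (adjusted p = 0.0505), and 41.8% of the 50-base windows of its transcript are shared, mostly with FBXO16. The values were -0.18 for MAFF, a small MAF factor (adjusted p = 0.0703), -0.10 for YEATS2, a reader of acylated histones (adjusted p = 0.181), -0.086 for BHLHE40, a repressor of the circadian clock (adjusted p = 0.426), and -0.21 for the low-count nuclear receptor RORA (adjusted p = 0.435). CITED2, which competes with HIF for its coactivators, had 1318 and 1477 counts with vehicle and 1443 and 1549 with EC359 (log2 fold change 0.098, adjusted p = 0.431), and its libraries overlapped.

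In the group of growth restraint and scaffolds, NDRG1 fell and DDIT4 had nearly equal counts. NDRG1, a stress-induced protein that restrains metastasis in several tumors, had 1196 and 1267 normalized counts with vehicle and 871 and 970 with EC359. Both EC359 libraries lay below both vehicle libraries (log2 fold change -0.42, SE 0.069, adjusted p = 0.00959). An annotated transcript with no gene symbol shares 23.7% of its 50-base windows. DDIT4 (REDD1), an inhibitor of mTORC1, had 557 and 649 counts with vehicle and 570 and 632 with EC359. The ranges overlapped almost wholly (log2 fold change -0.0054, SE 0.091, adjusted p = 0.985). CCNG2, a cyclin that slows the cell cycle, had a log2 fold change of -0.13 (adjusted p = 0.377). AKAP12, a protein kinase A scaffold, was at -0.10 (adjusted p = 0.0993). It was called lower with GC and length trends removed and with a replicate block. CCNG1, the paralog of CCNG2, had the lowest adjusted p among the paralogs examined (log2 fold change -0.19, adjusted p = 0.0277).

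None of the 5 genes of the endoplasmic reticulum and protein turnover was called by edgeR's quasi-likelihood test. ERO1L and ANKZF1 were called lower by edgeR's exact test and with a replicate block. ERO1L, ANKZF1 and WSB1 were called lower with GC and length trends removed, and ERO1L without vehicle replicate 2. ERO1L, the oxidase that supplies disulfide bonds, had 4658 and 4611 normalized counts with vehicle and 4133 and 4098 with EC359. Replicates were close and the treatments did not overlap (log2 fold change -0.17, SE 0.036, adjusted p = 0.0254). Its paralog ERO1LB had a log2 fold change of 0.29 (adjusted p = 0.168). ANKZF1, which releases stalled chains from the ribosome, had a log2 fold change of -0.25 (adjusted p = 0.0504), and WSB1, a ubiquitin ligase subunit, of -0.096 (adjusted p = 0.193). INSIG2, which holds back sterol synthesis, overlapped between treatments (log2 fold change -0.030). RIOK3, an atypical kinase, had 3382 and 3366 counts with vehicle and 3627 and 3433 with EC359, the lowest adjusted p among the 7 genes with a positive value (log2 fold change 0.065, adjusted p = 0.401).

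PPFIA4 had the largest change of the set. PPFIA4, a liprin-alpha scaffold protein, had 118 and 125 normalized counts with vehicle and 57.5 and 56.0 with EC359. Both EC359 libraries were below both vehicle libraries at 46.9% of the vehicle mean (log2 fold change -1.09, SE 0.17, adjusted p = 0.00677). These values rest on 106 and 112 raw reads with vehicle and 65 and 60 with EC359. The other liprin-alpha genes had log2 fold changes of 0.0054 for PPFIA1, 0.047 for PPFIA2 and 0.074 for PPFIA3, with adjusted p of 0.949, 0.878 and 0.84.

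The membrane protein gene TMEM45A had 310 and 328 normalized counts with vehicle and 259 and 233 with EC359. Its log2 fold change was -0.38 (adjusted p = 0.0676), and it was called lower only with a replicate block. SPAG4, a SUN-domain protein of the nuclear envelope, had 189 and 169 counts with vehicle and 104 and 161 with EC359 (log2 fold change -0.44, adjusted p = 0.208). The 2 EC359 libraries of SPAG4 differed widely, and its log2 fold change was -0.16 without EC359 replicate 1 and -0.78 without EC359 replicate 2. FAM13A had a log2 fold change of -0.16 (adjusted p = 0.322). ANKRD37, an ankyrin repeat protein, had a log2 fold change of -0.060 (adjusted p = 0.867), and 45.2% of the 50-base windows of its transcript are shared, mostly with UFSP2 on the opposite strand.

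Paralogs of the set were compared as genes of the same biochemistry. Of 48 such paralogs outside the set, 37 were tested and 0 were called by edgeR's quasi-likelihood test. Over all tested genes 0.795% were called lower and 0.299% higher, so 0 of 37 says little. At an unadjusted p under 0.05 in that test, 5 were lower (11.0% of all tested genes) and 2 higher (10.7%). DESeq2 and limma voom also called 0 of them, and edgeR's exact test called CCNG1 lower. With GC and length trends removed CCNG1, NDRG3 and PLOD3 were called lower, and with a replicate block RIOK1 was also called higher. PLOD3 was called without vehicle replicate 1 and CCNG1 without vehicle replicate 2. Their median log2 fold change was 0.0091, with 17 below 0 and 20 above, against -0.13 for the set. In PDK1, P4HA1, MXI1, NDRG1 and PPFIA4, the called gene had the lowest value of its family. This follows in part from the selection of called genes as lower. Some genes that were not called, such as KDM3A, PLOD1 and ERO1L, were also the lowest of their families. Others, such as CCNG2, BHLHE40, INSIG2 and PYGL, lay above a paralog. The difference between a gene and its paralog was not tested.

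**Figure D4:**
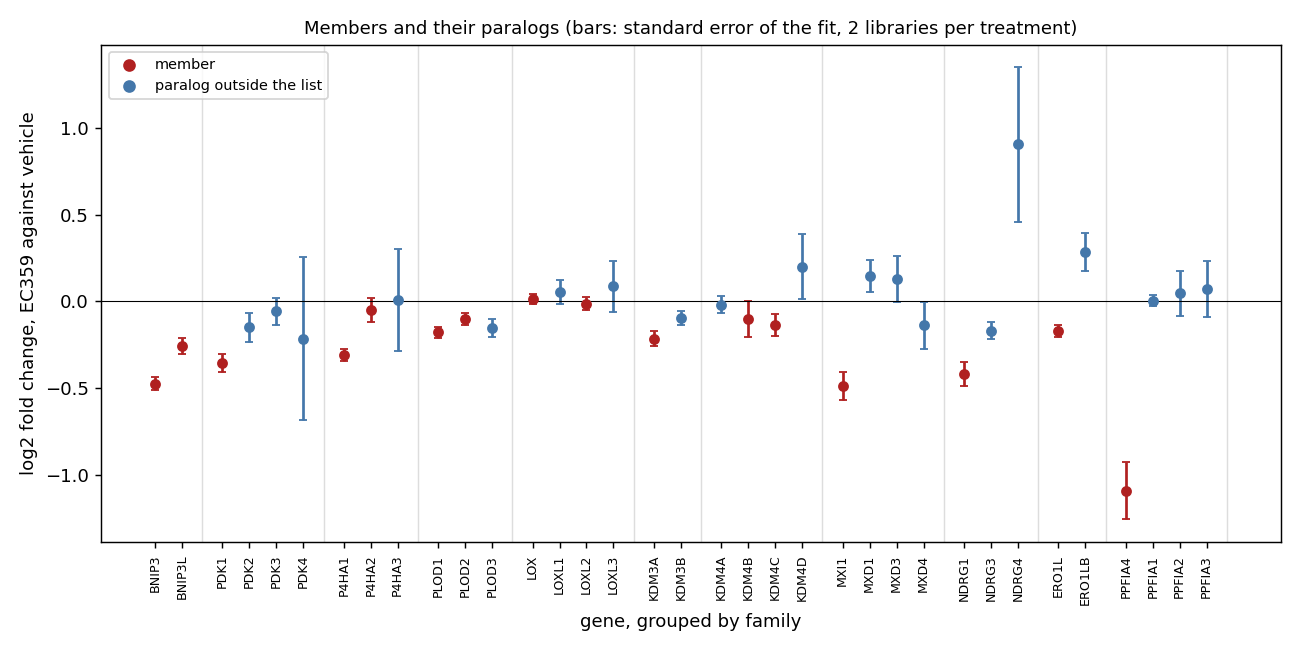
Log2 fold change of EC359 against vehicle, with the standard error of the fit as bars (2 libraries per treatment), for genes of the set (red) and their paralogs outside it (blue) in 11 families. The called BNIP3, PDK1, P4HA1, MXI1, NDRG1 and PPFIA4 are the lowest points of their families. So are PLOD1, LOXL2, KDM3A, KDM4C and ERO1L, which were not called. NDRG4 and PDK4 have wide bars. Families in which a paralog was lower, such as that of CCNG2, are not drawn.

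The genes of oxygen sensing themselves were not called by edgeR's quasi-likelihood test, although EPAS1 was called higher under some alternatives. HIF1A had 16867 and 17001 normalized counts with vehicle and 17810 and 17896 with EC359, with both EC359 libraries slightly above (log2 fold change 0.076, adjusted p = 0.164). EPAS1 had 305 and 270 counts with vehicle and 392 and 399 with EC359 (log2 fold change 0.46, adjusted p = 0.0244). ARNT, ARNT2, EGLN1, VHL and HIF1AN had log2 fold changes of 0.067, 0.28, -0.072, -0.043 and 0.0035. At an unadjusted p under 0.05 in edgeR's quasi-likelihood test, 2 were higher (10.7% of all tested genes) and 0 lower (11.0%). None of the 7 tested genes passed the threshold with this test. Over all tested genes 0.795% were called lower and 0.299% higher, so 0 of 7 says little. DESeq2 and limma voom called 0 as well, while EPAS1 was called higher by edgeR's exact test, with GC and length trends removed and without vehicle replicate 1. With a replicate block both EPAS1 and HIF1A were called higher. HIF3A, EGLN2 and EGLN3 had at most 2 raw counts in a library. In the glycolytic and pH-control hypoxia targets, 9 of 22 tested genes were called lower and 0 higher (0 also at an unadjusted p under 0.05), with a median of -0.21 and all 22 below 0. Those with the lowest p were PGK1 (-0.41), CA9 (-1.14) and LDHA (-0.41). Whether the glycolytic and the other targets differ in their response was not tested.

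Of the called genes, 3 lie on chromosome 10, far apart, and the others on separate chromosomes. In the GENCODE annotation lifted to GRCh37, BNIP3 lies on chromosome 10 from 133781188 to 133795471, P4HA1 on the same chromosome from 74766975 to 74856732 and MXI1 from 111967363 to 112047123. PDK1 lies on chromosome 2 from 173420101 to 173473397, FAM162A on chromosome 3 from 122103008 to 122131181, NDRG1 on chromosome 8 from 134249418 to 134314265, GYS1 on chromosome 19 from 49471387 to 49496567 and PPFIA4 on chromosome 1 from 202995619 to 203047868. Counts were taken over whole genes, so no exon or isoform is resolved.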

How the data were processed

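RNA of ES2 cells was measured in 2 vehicle and 2 EC359 libraries, and none was left out. According to the methods and the submitters' processing notes, base calls were made with CASAVA 1.8.2, and TopHat2 2.0.8b was used by the authors for alignment to UCSC hg19. Genes followed NCBI RefSeq, and HTSeq gave the deposited raw counts, 1 value per gene symbol and library. Reads with several alignments are in none of these counts, which lowers genes with near-identical copies, and the strand setting is not given in the sources used here. The 5 summary rows that name no gene were left out; reads on no feature were 10.9% to 12.0% of reads with a single alignment.

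Genes were filtered with filterByExpr (minimum count 10, minimum total 15), scaled (TMM) and tested in edgeR 4.0.16 (quasi-likelihood test, no replicate block) in R 4.3.3, with Benjamini-Hochberg adjustment over all 12706 tested genes. Standard errors were obtained from the log2 fold change and the F statistic, as their ratio after taking the root of F. The prior degrees of freedom were 8.28 and the biological coefficient of variation 3.50%. Replicates differed by more than sampling noise (chi-square per degree of freedom 3.81 for vehicle and 2.72 for EC359). DESeq2 1.42.0, limma 3.58.1 and the other alternatives are given in the closing section.

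Full values are given for each called gene and for the gene of each function group with the lowest p, and paralogs beside their relative; per-library values of other genes were added after their values were seen. The genes of the set and all lists were chosen with earlier results of these data known, so no set test was run. Of the marker genes checked, 1 is not reported here. Shared windows are 50-base stretches of the canonical transcript found, in sense or antisense, in a transcript annotated to some other gene. Of the tested genes, 95.9% had a transcript length in GENCODE v44 lifted to GRCh37, which is UCSC hg19. ERO1L is listed there as ERO1A. Promoter windows come from RefSeq (GRCh38.p14), whose coordinates are not comparable with GRCh37.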

Additional observations from a re-analysis of the deposited data

How the results depend on the processing

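The 11 genes with full values were picked for a low p in these same libraries. In each, both EC359 libraries lay below both vehicle libraries. Their direction was thus largely fixed by that choice, and it was the same under all 13 alternative fits. Of the 43 tested genes, 33 kept 1 sign throughout. The 10 others, DDIT4, UGP2, PAM, LOX, LOXL2, KDM4B, PYGL, PPP1R3B, INSIG2 and ANKRD37, were not called under any of them. The genes of the set called lower numbered 8 with RLE factors and with limma voom, 9 with DESeq2, 5 with total counts only, 5 with at least 10 counts in every library, 2 with no filter (BNIP3 and P4HA1), 14 with edgeR's exact test, 19 with GC and length trends removed and 12 at an adjusted p under 0.05. DESeq2 called 7 of the 8 plus BNIP3L and PLOD1, and gave PPFIA4 an adjusted p of NA. No alternative with all 4 libraries called a gene of the set higher. Over all tested genes these fits called from 17 of 16620 higher (no filter) to 692 of 12706 (replicate block). The calls over all tested genes were 139 in the reported fit (101 lower) and 232 with DESeq2 (172 lower). They were 568 with edgeR's exact test (333 lower) and 61 with no filter (44 lower). With GC and length trends removed they were 1034 (719 lower), and at an adjusted p under 0.05 they were 549 (336 lower). Those called lower were 107 with RLE factors, 109 with limma voom and 69 with total counts only. With at least 10 counts in every library they were 95 of 12317. Other fits covered 12706 genes, or 16620 with no filter and with DESeq2, which gave 9149 of them no adjusted p. The other pathway genes called were 9 in the reported fit, 16 with the exact test, 20 with the trends removed and 15 at an adjusted p under 0.05. The cause of these shifts was not tested.

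Leaving out 1 library gave from 0 to 13 called genes of the set, from 0 to 539 over all tested genes and from 0 to 15 among the other pathway genes. The counts of 0 came without EC359 replicate 1 or 2, with the lone EC359 library assumed to vary like the vehicle libraries, and the adjusted p of the 8 then was 0.17 or more. Their log2 fold changes stayed negative, which follows from both EC359 libraries of each gene lying below both vehicle libraries. They ran from -0.50 to -0.45 for BNIP3 and from -1.13 to -1.06 for PPFIA4, and more widely for PDK1 (from -0.43 to -0.28), MXI1 (from -0.58 to -0.40) and NDRG1 (from -0.50 to -0.34). The median of the set lay between -0.16 and -0.10 in these fits.

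The labels give the replicates the same numbers in both treatments without saying what a number marks. Over the tested genes, weighted alike, the log2 ratio of replicate 1 to replicate 2 with vehicle correlated at 0.0987 with that under EC359. Whether a number marks a shared batch was not tested. With a replicate block, 19 genes of the set were called lower, while 847 of all 12706 tested genes were called lower and 692 higher. The calls in either direction were then 1539 over all tested genes and 23 among the other pathway genes. Genes under about 20 normalized counts, such as ANGPTL4, had standard errors too large for a change of this size to be seen.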
